A study of Mus musculus with 6 samples.

Results

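The genes described here are 8 ligand and receptor genes of neurotrophin and GDNF signalling, *Bdnf*, *Ntf3*, *Ntrk2*, *Ntrk3*, *Ngfr*, *Ret*, *Gfra2* and *Gfra3*. They were chosen by name, and all 8 were found among the 35976 genes counted in each library. RNA was sequenced from 6 cultures of neurons dissociated from lumbar dorsal root ganglia (DRG) of adult wildtype C57BL/6 mice of both sexes, aged 2 to 3 months. After 24 h on the dish, 3 cultures received vehicle and 3 received HC-HA/PTX3 at 15 µg/mL, each for 24 h, and the question asked was whether prolonged exposure changes gene expression in these neurons. HC-HA/PTX3 is a matrix of hyaluronic acid, a heavy chain of inter-α-trypsin inhibitor and pentraxin 3, purified from human amniotic membrane. According to the methods, the cells of both groups were plated in medium with growth factors, GDNF among them, so that every culture, vehicle included, was already supplied with a ligand of the RET receptor. Library totals were 42516054, 42617496 and 54117547 counts in vehicle replicates 1, 2 and 3 and 37998071, 37434266 and 38420247 counts in the HC-HA/PTX3 replicates.

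Neurotrophins are secreted growth factors that keep sensory neurons alive during development and tune their excitability in the adult. Each binds a Trk receptor tyrosine kinase, such as TrkB (*Ntrk2*) for BDNF and TrkC (*Ntrk3*) for NT-3, and all of them bind the shared receptor p75 (*Ngfr*). GDNF family ligands bind a GFRα co-receptor held at the membrane by a lipid anchor, and the pair then engages the receptor tyrosine kinase RET. In the DRG these receptors divide the neurons into classes, with RET and GFRα2 on many non-peptidergic nociceptors, TrkB on a class of touch receptors and TrkC on proprioceptors.

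The 2 shared signalling receptors, *Ret* and *Ngfr*, took up a large number of reads, and 1 of the 2 ligands was close to the detection limit. Levels are given in CPM, library-size-scaled counts normalized by the trimmed mean of M-values (TMM), where 1 CPM stood for 37.1 to 56.0 counts. When all listed genes were ordered by their mean CPM over vehicle, with no correction for length, *Ret* was at rank 62, *Ngfr* at 99, *Ntrk3* at 1184, *Bdnf* at 1204, *Ntrk2* at 2454, *Gfra3* at 3446, *Gfra2* at 5577 and *Ntf3* at 19022. To compare genes with each other, levels were divided by the length of all annotated exons. Per kilobase of exon, *Ngfr* led with 225 ± 3.95 CPM (SD, n = 3 vehicle cultures), followed by *Ret* with 146 ± 6.68, *Gfra3* with 36.6 ± 0.532 and *Bdnf* with 28.3 ± 2.07. *Gfra2* had 11.4 ± 2.94, *Ntrk3* 5.93 ± 1.12, *Ntrk2* 5.23 ± 2.37 and *Ntf3* 0.0969 ± 0.108 CPM per kilobase. Neighbours in this order were separated by more than their SDs except *Ntrk3* and *Ntrk2*. When the longest transcript was used as the length, a choice made after seeing the data, *Bdnf* at 41.3 stood above *Gfra3* at 36.6, and *Ntrk2* at 11.5 stood above *Ntrk3* at 9.09 and level with *Gfra2* at 11.6 CPM per kilobase. Kinase-bearing and truncated transcripts of *Ntrk2* and *Ntrk3* are summed in these gene counts, and so are the transcripts from the several start sites of *Bdnf*.

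**Figure D1:**
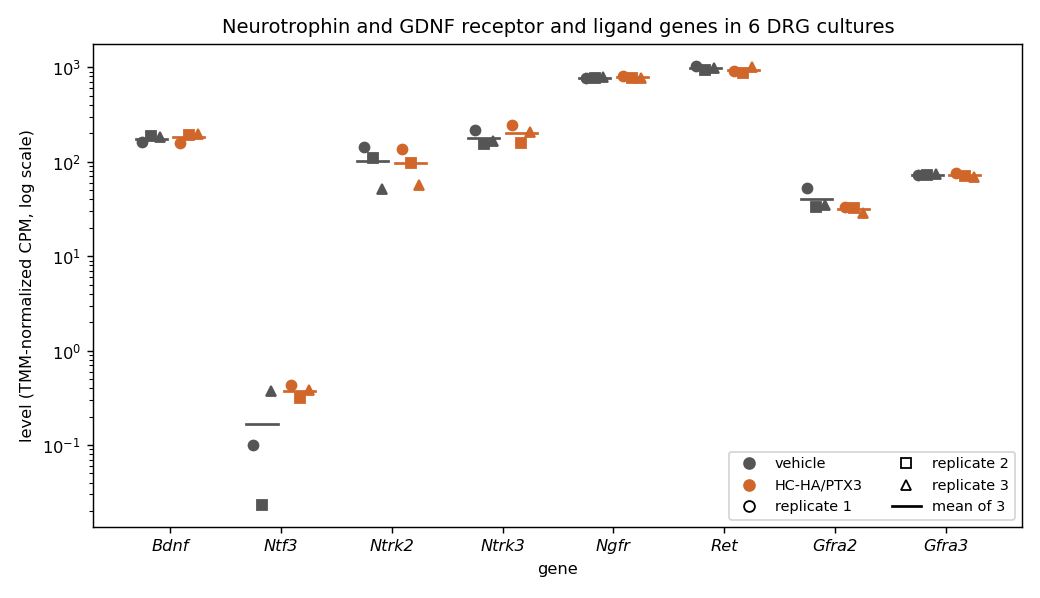
Level of each of the 8 genes in TMM-normalized CPM on a log axis, with vehicle cultures in grey, HC-HA/PTX3 cultures in orange, a symbol for each replicate number and a bar for the mean of 3. *Ret* and *Ngfr* lay between 763 and 1034 CPM in every culture, *Ntrk2* was split by replicate number in both groups, and *Ntf3* stayed below 0.5 CPM throughout.

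The promoter windows of the most and the least abundant gene per length are shown, since they mark both ends of this range. RefSeq promoter windows of GRCm38.p6, each with 250 bases before and 50 after a start site, were matched by symbol for 4 of the 8 genes, *Bdnf* with 7 windows, *Ntf3* with 2, *Ntrk2* with 1 and *Ngfr* with 1. The window of *Ngfr* (chr11:95587649-95587948, minus strand) held 71.7% G and C, and that of the upstream one of the *Ntf3* starts (chr6:126166695-126166994, minus strand) held 61.0%, against a median of 52.7% over all 32851 windows. Capitals mark the GC box GGGCGG on either strand, a motif known to be bound by SP family factors, which occurred 4 times in the *Ngfr* window, 1 time in this *Ntf3* window, 2 times in the other *Ntf3* window (chr6:126164911-126165210, 55.7% G and C) and at least 1 time in 35.7% of all windows.
Ngfr: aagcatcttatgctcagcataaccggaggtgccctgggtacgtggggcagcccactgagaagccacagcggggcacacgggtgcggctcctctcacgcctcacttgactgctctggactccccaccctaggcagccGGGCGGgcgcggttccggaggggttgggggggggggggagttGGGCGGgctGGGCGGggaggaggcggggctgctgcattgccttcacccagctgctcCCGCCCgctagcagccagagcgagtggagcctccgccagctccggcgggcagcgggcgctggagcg
Ntf3: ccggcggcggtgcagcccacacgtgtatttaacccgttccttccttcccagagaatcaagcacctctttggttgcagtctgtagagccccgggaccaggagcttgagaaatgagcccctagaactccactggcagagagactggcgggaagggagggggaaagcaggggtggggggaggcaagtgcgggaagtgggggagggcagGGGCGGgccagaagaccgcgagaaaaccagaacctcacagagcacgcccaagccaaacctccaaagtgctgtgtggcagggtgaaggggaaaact
These matches describe the letters of the windows only. The 7 windows of *Bdnf* ranged from 38.7% to 58.0% G and C, and 2 of them held the motif.

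Treatment with HC-HA/PTX3 for 24 h left the 8 genes without a call. Changes were estimated within same-numbered pairs of cultures with edgeR's quasi-likelihood test, the replicate number entering as a block, and a call required a p-value below 0.05 after Benjamini-Hochberg adjustment together with a log2 fold change beyond 0.5 in either direction, the thresholds that the methods name. All 8 genes passed the low-count filter. None of the 8 was called, whereas 8.70% of the 18277 tested genes were. The unadjusted p-value was below 0.05 for 2 of the 8, *Ntrk3* and *Gfra2*, against 33.2% of all tested genes, and *Gfra2* alone had an adjusted p-value under 0.05, against 19.2% of all. DESeq2 and limma-voom with the block also called 0 of the 8, and so did the fit with treatment as the only term, which called 0 genes of the whole table, with 11.4% of them at an unadjusted p-value below 0.05. A figure legend of the paper calls the samples biological replicates, and nothing in the labels says whether they came from separate animals or dissections. With the block, the p-values therefore measure the spread of the differences within same-numbered pairs of these cultures. Without it, they measure the spread between the cultures. Either spread may in part be technical.

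The 95% interval of the log2 fold change lay wholly between -0.5 and 0.5 for 6 of the 8 genes, as it did for 52.1% of all tested genes, and the exceptions were *Ntf3* and *Gfra2*. These shares were not matched for abundance, on which the width of an interval depends. The median log2 fold change of the 8 was -0.01, and that of all tested genes was -0.01. The genes are taken in turn below, from the ligands to the receptors.

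*Bdnf* encodes brain-derived neurotrophic factor, which nociceptors release onto spinal neurons. It lies on chromosome 2 of mm10 from 109674700 to 109727007, and its exons overlap those of an antisense gene, Gm45346, by 896 bases. It was measured at 162, 186 and 181 CPM in vehicle replicates 1, 2 and 3 and at 157, 192 and 196 CPM in the HC-HA/PTX3 replicates, from raw counts between 5835 and 10129. Vehicle and treated cultures overlapped, with replicate 1 the lowest in both groups. The log2 fold change was 0.04 (SE 0.06, 95% interval -0.10 to 0.18, adjusted p = 0.680 from edgeR).

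*Ntf3* encodes neurotrophin 3, the ligand of TrkC, and was the rarest of the 8. It lies on chromosome 6 from 126101412 to 126166910. Its raw counts were 4, 1 and 21 in vehicle replicates 1, 2 and 3 and 16, 12 and 15 in the HC-HA/PTX3 replicates, 26 and 43 counts in all. In CPM this came to 0.0999, 0.0233 and 0.375 with vehicle and to 0.431, 0.317 and 0.381 after treatment, since vehicle replicate 3, with the highest raw count, was also the deepest library. The treated culture was higher in 3 of 3 pairs, by very little in pair 3, and the groups overlapped because vehicle replicate 3 lay within the treated range. With exact Poisson limits for counting error alone, the single count of vehicle replicate 2 allowed 0.0253 to 5.57 counts and the 21 of vehicle replicate 3 allowed 13.0 to 32.1.

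Scaled to library size, the ratio of treated to vehicle for *Ntf3* was 4.32 in pair 1 (95% counting interval 1.39 to 17.7), 13.6 in pair 2 (2.01 to 581) and 1.02 in pair 3 (0.487 to 2.07). The intervals of pairs 1 and 2 lay above 1, and that of pair 3 included it. The fitted log2 fold change was 1.21 (SE 0.56, interval -0.03 to 2.45, adjusted p = 0.160 from edgeR) with the block and 1.08 (adjusted p = 0.636) without it. Without the cultures numbered 3 it was 2.60 and was called (adjusted p = 0.0181), but the gene then passed the low-count filter through the treated cultures alone, where it was high, so the call supports nothing further. Without those numbered 1 it was 0.89 (adjusted p = 0.453), and without those numbered 2 it was 0.76 (adjusted p = 0.415). After ComBat-seq with limma it was 1.47 (adjusted p = 0.09996). Over all alternatives with an adjusted p-value it ran from 0.0181 to 0.636. In the fit of all 6 cultures, too, *Ntf3* passed the low-count filter through the treated cultures, as vehicle replicates 1 and 2 had counts of 4 and 1. The fitted value was above 0 under each of the 10 alternatives that gave one. These refits use the same counts, so their shared direction adds no support. The size of the change and the call depended on which pairs were used.

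*Ntrk2*, on chromosome 13 from 58806569 to 59133970, encodes TrkB, and its truncated forms are known from glial cells as well as neurons. Its levels were 142, 109.8 and 51.5 CPM in vehicle replicates 1, 2 and 3 and 136, 96.6 and 56.1 CPM in the HC-HA/PTX3 replicates. In both groups replicate 1 was the highest and replicate 3 the lowest, by a factor of 2.75 with vehicle and 2.42 with HC-HA/PTX3. Within pairs the treated culture differed by log2 values of -0.06, -0.18 and 0.12. The fitted log2 fold change was -0.04 (SE 0.07, interval -0.20 to 0.12, adjusted p = 0.721 from edgeR).

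*Ntrk3* encodes TrkC and lies on chromosome 7 from 78175959 to 78738012. In replicates 1, 2 and 3 its levels were 217, 153 and 167 CPM without and 246, 157 and 204 CPM with HC-HA/PTX3. The treated culture was the higher one in each of the 3 pairs, although the groups overlapped. The log2 fold change was 0.17 (SE 0.07, interval 0.02 to 0.32), with an unadjusted p-value of 0.0286 and an adjusted p-value of 0.103 from edgeR.

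*Ngfr* encodes p75, which binds all neurotrophins and, together with sortilin, their precursors. It lies on chromosome 11 from 95568818 to 95587735. Its levels were 763, 776 and 791 CPM in vehicle replicates 1, 2 and 3 and 819, 765 and 768 CPM in the HC-HA/PTX3 replicates. Under TMM scaling the highest vehicle culture exceeded the lowest by a factor of 1.04, with an SD of 13.6 CPM. That SD was 27.7 under upper-quartile scaling and 50.1 with raw library sizes. The log2 fold change was 0.01 (SE 0.06, interval -0.13 to 0.16, adjusted p = 0.912 from edgeR).

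*Ret*, on chromosome 6 from 118151745 to 118197718, encodes the signalling receptor of the GDNF family. It was measured at 1034, 944 and 990.2 CPM in the vehicle cultures and at 915, 864 and 1009 CPM in the HC-HA/PTX3 cultures. Treated replicates 1 and 2 were below every vehicle culture, and treated replicate 3 was within the vehicle range. The log2 fold change was -0.09 (SE 0.07, interval -0.24 to 0.06, adjusted p = 0.373 from edgeR).

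*Gfra2* encodes the co-receptor for neurturin and was the single gene of the 8 whose groups did not overlap, as was seen in 18.0% of all tested genes. It lies on chromosome 14 from 70890120 to 70979838. Its levels were 52.2, 33.6 and 34.9 CPM in vehicle replicates 1, 2 and 3 and 33.3, 32.1 and 28.4 CPM in the HC-HA/PTX3 replicates. Vehicle replicate 1 stood well above the rest, and the gap between the groups was 33.6 against 33.3 CPM. Within pairs the log2 difference was -0.65, -0.07 and -0.30.

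With the block, the log2 fold change of *Gfra2* was -0.34 (SE 0.10, interval -0.57 to -0.11, adjusted p = 0.0466 from edgeR), short of the fold threshold, and 0 of the 3 pairs were higher after treatment. Without the cultures numbered 1 it was -0.18 with an adjusted p-value of 0.329, without those numbered 2 it was -0.48 with 0.0377, without those numbered 3 it was -0.34 with 0.0756, and without the block it was -0.36 with 0.521. Over all 11 alternatives the log2 fold change ran from -0.48 to -0.18 and the adjusted p-value from 0.00299 to 0.521, with 0 calls. *Gfra3*, the co-receptor for artemin on chromosome 18 from 34689898 to 34720387, had vehicle levels of 73.3, 72.0 and 74.1 CPM and treated levels of 76.6, 70.8 and 68.4 CPM. Under TMM scaling its vehicle cultures were close together, with a coefficient of variation of 1.45%, and lay within the range of the treated ones. Their SD was 1.06 CPM there, 1.97 under upper-quartile scaling and 3.82 with raw library sizes. The log2 fold change was -0.03 (SE 0.07, interval -0.17 to 0.12, adjusted p = 0.827 from edgeR).

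**Figure D2:**
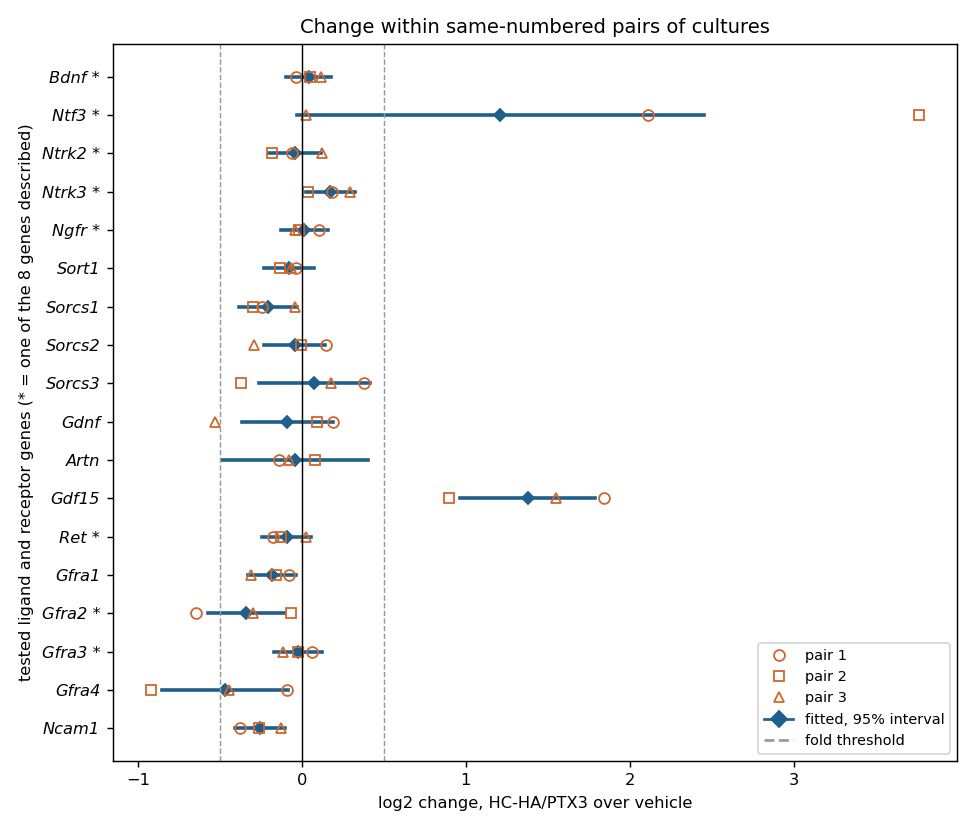
Log2 change of HC-HA/PTX3 over vehicle for tested ligand and receptor genes, with an open symbol for each of the 3 same-numbered pairs, and the fitted value with its 95% interval in blue. *Ntf3*, with pairs from 0.02 to 3.77, had the widest interval, and *Gdf15* was the single gene whose interval lay wholly beyond the dashed threshold of 0.5.

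The other ligands and receptors of both families were taken from lists of named genes. Of the 24 ligand and receptor genes in all, the 8 included, 20 passed the low-count filter and 1 was called, against 8.70% of all tested genes. That gene was *Gdf15*, a distant member of the ligand family that signals through GFRAL and RET. It was measured at 0.624, 2.63 and 4.88 CPM in vehicle replicates 1, 2 and 3 and at 2.24, 4.91 and 14.3 CPM in the HC-HA/PTX3 replicates. The treated culture was higher in each pair while the groups overlapped, and the log2 fold change was 1.38 (SE 0.19, adjusted p = 0.00133 from edgeR with the block), a 2.60-fold rise. It was called under 10 of 11 alternatives, with adjusted p-values from 6.26e-14 to 0.594, the highest being that without the block. Its receptor gene *Gfral* had raw counts of 3, 0 and 0 in the vehicle cultures and 0, 1 and 0 in the treated ones, and a count of 0, with the one-sided 95% limit of 3 counts, allowed at most 0.0808 CPM.

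*Gdnf*, the gene of the ligand that was also added to the medium, was at 22.2, 31.9 and 53.5 CPM in vehicle replicates 1, 2 and 3 and at 25.3, 34.1 and 37.1 CPM in the treated ones. It was lowest in replicate 1 and highest in replicate 3 of each group, and the groups overlapped (log2 fold change -0.09, adjusted p = 0.662). *Artn*, the artemin gene, had mean levels of 1.73 (vehicle) and 1.69 CPM (treated), with an adjusted p-value of 0.913. *Ntf5*, *Nrtn* and *Pspn*, which encode neurotrophin 4, neurturin and persephin, did not pass the filter and had at most 7, 12 and 1 counts in any library.

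*Gfra1*, the co-receptor for GDNF, had mean levels of 289 (vehicle) and 259.7 CPM (treated) (log2 fold change -0.18, adjusted p = 0.0813). *Ncam1*, an adhesion molecule that can serve as an alternative GDNF receptor, had a log2 fold change of -0.26 (adjusted p = 0.0264), within the fold threshold, and *Gfra4* of -0.47 (adjusted p = 0.0868). The sorting receptors *Sort1*, *Sorcs1*, *Sorcs2* and *Sorcs3* had log2 fold changes of -0.08, -0.21, -0.05 and 0.07, with adjusted p-values from 0.0993 to 0.776. All 6 tested GDNF family receptors had a fitted value below 0, with a median of -0.22, although *Gfra3* was at 0.01 under upper-quartile scaling. Of all 18277 tested genes, 8929 had a fitted value above 0. With edgeR 4 of the 6 receptors had an unadjusted p-value below 0.05, against 33.2% of all tested genes, and 0 were called. Without the block the unadjusted p-values of the 6 from edgeR ran from 0.0943 (*Gfra2*) to 0.793 (*Gfra3*). The summed Schwann cell and fibroblast markers, given below, were also lower in the treated culture of each pair. The summed satellite glia markers changed by log2 values of -0.12, 0.06 and 0.11 in pairs 1, 2 and 3. The summed neuron markers changed by 0.003, 0.07 and 0.19. The part of these cells in the receptor values was not tested.

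Differences between replicate numbers were far larger than those between treatments for *Ntrk2*, where replicate 3 stood at a log2 value of -1.36 from replicate 1. A test of the replicate number in the same edgeR fit, added after the data were seen, gave an adjusted p-value under 0.05 to 4 of the 8 genes, against 33.8% of all tested genes. Those 4 were *Ntrk2* (adjusted p = 7.05e-06), *Ntrk3* (0.00131), *Bdnf* (0.0429) and *Gfra2* (0.0490). *Ngfr* (0.919), *Gfra3* (0.697), *Ret* (0.344) and *Ntf3* (0.277) did not pass. Of the 20 tested ligand and receptor genes, 16 passed, with the smallest p-value for *Sorcs1* (1.03e-07), which was at 80.2, 40.9 and 9.27 CPM in vehicle replicates 1, 2 and 3 and at 67.8, 33.2 and 8.99 CPM in the treated ones.

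The summed glial markers, like *Ntrk2* and *Sorcs1*, were highest in replicate 1 and lowest in replicate 3 of both groups. The 9 satellite glia markers summed to 1693, 980.2 and 407 CPM in vehicle replicates 1, 2 and 3 and to 1562, 1020 and 439 CPM in the HC-HA/PTX3 replicates, with *Apoe* the most abundant on average, though not in each culture. The 11 Schwann cell markers summed to 2097, 1480 and 934 CPM and to 1952, 1365 and 899 CPM, with *Pmp22* the most abundant. All 9 satellite glia genes and 10 of 11 Schwann cell genes passed the test of the replicate number, which has no direction, and single genes of both lists departed from the sums. None of either list was at 0 in all cultures, and 1 gene of each list was called lower after treatment, that of the satellite glia list being *Fbln5*, against 5.38% of all tested genes. The 12 neuron markers summed to 11782, 8983 and 10106 CPM with vehicle and to 11809, 9445 and 11517 CPM with HC-HA/PTX3, with *Nefl* the most abundant, so that replicate 2 was the lowest in both groups. The part of glial RNA in the levels of *Ntrk2* and *Sorcs1* was not tested, and in bulk RNA fewer cells of a type cannot be told apart from less RNA per cell.

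**Figure D3:**
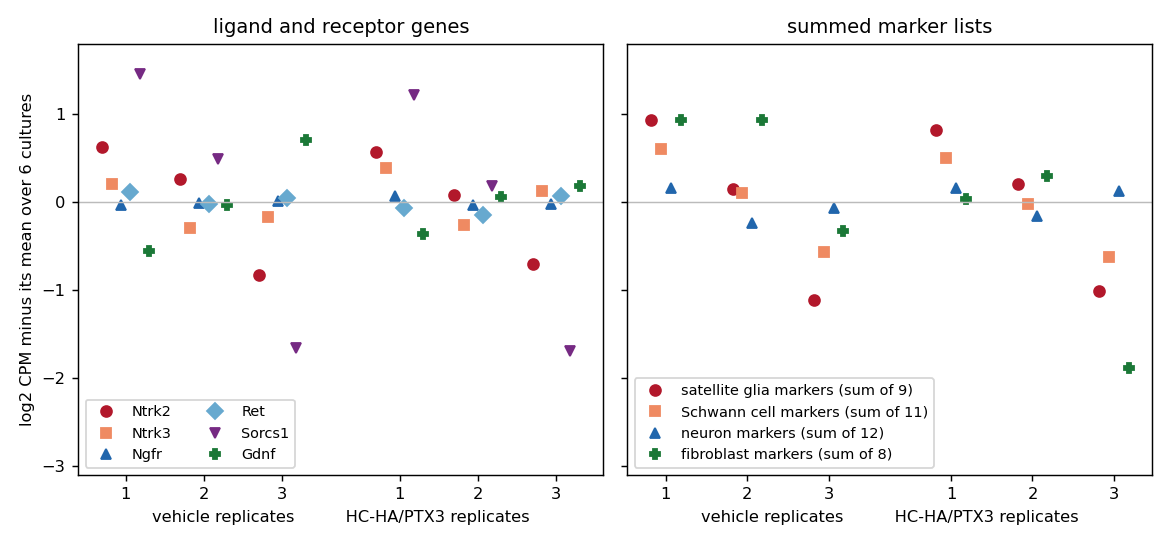
Log2 CPM of 6 ligand and receptor genes (left) and of 4 summed marker lists (right), each relative to its mean over the 6 cultures, by group and replicate number. *Ntrk2* and *Sorcs1* were high in replicate 1 and low in replicate 3 of both groups, as were the glial sums, whereas *Ngfr* and *Ret* lay close to 0 in all cultures.

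As a description of pattern, each of the 8 genes was compared with up to 15000 tested genes of at least 1 mean CPM by Pearson correlation of log2 CPM over the 6 cultures. With so many genes and 6 points that share replicate numbers, some correlations near 1 arise in any case. *Ntrk2* had 515 genes above 0.95, led by *Cxcr4*, *Itga2* and *Cmtm5* (r = 0.9998, 0.999 and 0.997). *Ntrk3* had 76, led by *Pik3r3*, *Arl6ip1* and *Atp6v0d2*. *Gfra2* had 25, led by *Slain1*, *Ift22* and *Dtd1*. *Ret* had 21, led by *Cckbr*, *Angel1* and *Sh3glb1*, and *Bdnf* had 19, led by *Trmt11*, *Hoxa10* and *Dus2*. *Ntf3* had 10, led by *Ceacam10*, *Ube2v2* and *Emcn*, *Ngfr* had 8, led by l7Rn6, *Taf8* and *Cldnd1*, and *Gfra3* had 5, led by *Prob1*, *Cant1* and *Mir29a*.

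The wider pathway was read from 5 further lists. Together with the ligands and receptors, 107 pathway genes were tested, of which 2 were called higher and 7 lower, 8.41% in all against 8.70% of all tested genes (3.32% higher and 5.38% lower). Without the cultures numbered 1, 4 pathway genes were called, in a setting where the count over the whole table fell from 1591 to 878. Among 23 genes of the ERK and AKT cascades, which carry Trk and RET signals to the nucleus, 0 were called, and all 23 had an interval between -0.5 and 0.5, against 52.1% of all tested genes. The width of an interval depends on abundance, and this comparison was not matched for level. In edgeR's test 7 of the 23 had an unadjusted p-value below 0.05 and 3 an adjusted one, where the shares of all tested genes were 33.2% and 19.2%. Of 23 receptor adaptors, which dock on the activated kinases, 1 was called lower, *Frs3*, an adaptor of Trk and FGF receptors. It was measured at 6.17, 7.70 and 10.6 CPM in the vehicle cultures and at 3.83, 4.33 and 5.51 CPM in the treated ones, without overlap (log2 fold change -0.83, SE 0.13, adjusted p = 0.00255).

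Of 9 partners of p75, *Traf6* and *Tnfrsf19* were called lower, as were 5.38% of all tested genes. *Traf6*, a ubiquitin ligase recruited to p75, was at 33.1, 34.8 and 40.5 CPM in the vehicle cultures and at 19.7, 24.9 and 23.2 CPM in the treated ones. Its groups did not overlap (log2 fold change -0.68, SE 0.09, adjusted p = 0.00119). *Tnfrsf19*, a p75-related receptor, was lower in 3 of 3 pairs (log2 fold change -0.68, SE 0.20, adjusted p = 0.0427). It lost its call without the cultures numbered 1 (-0.53, adjusted p = 0.238) or 3 (-0.52, adjusted p = 0.139). DESeq2 (adjusted p = 0.0609), limma-voom (0.0513), upper-quartile scaling (0.0523), ComBat-seq with limma (0.0504) and the fit without the block did not call it either. In these fits its log2 fold change lay between -0.69 (DESeq2) and -0.61 (ComBat-seq with limma). Its adjusted p-value ran from 0.00135 to 0.509 over 11 alternatives.

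Of 21 feedback regulators and induced targets, 1 was called higher and 2 lower, against 3.32% and 5.38% of all tested genes. The immediate early gene *Arc* was higher in 3 of 3 pairs (log2 fold change 0.55, SE 0.12, adjusted p = 0.0133). Without the cultures numbered 1 it stood at 0.39 and was not called (adjusted p = 0.0823, range over 11 alternatives 0.000335 to 0.808), nor was it without the block (0.49). *Egr1*, a transcription factor induced by ERK signalling, was at 142, 128 and 158 CPM in the vehicle cultures and at 96.3, 101 and 99.6 CPM in the treated ones (log2 fold change -0.52, SE 0.07, adjusted p = 0.00159). Its groups did not overlap, and its fold change was close to the threshold, with -0.50 and no call without the cultures numbered 1, and -0.43 and no call without those numbered 3. It also lost its call under upper-quartile scaling (-0.49), after ComBat-seq with limma (-0.48) and without the block (-0.53), and was called under 6 of 11 alternatives. *Spry1*, a feedback inhibitor of receptor tyrosine kinases, was lower in 3 of 3 pairs (log2 fold change -0.64, SE 0.18, adjusted p = 0.0325). It lost its call without the cultures numbered 1 (-0.56, adjusted p = 0.187) or 3 (-0.42, adjusted p = 0.116), after ComBat-seq with limma (-0.56, adjusted p = 0.0732) and without the block (-0.57). Its adjusted p-value ranged from 0.000123 to 0.587 over 11 alternatives.

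Of 11 genes for the processing of proneurotrophins, 2 were called lower, *Pcsk5* among them, against the same 5.38%. The convertase *Pcsk5* was lower in 3 of 3 pairs (log2 fold change -0.57, SE 0.12, adjusted p = 0.00807). It lost its call without the cultures numbered 1 (-0.59, adjusted p = 0.0662) or 2 (-0.55, adjusted p = 0.0510) and without the block (-0.57). Its adjusted p-value ranged from 0.000397 to 0.628 over 11 alternatives.

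The summed fibroblast markers were lower in the treated culture of each pair. So were the 7 pathway genes called lower, for which selection by a within-pair test made this likely beforehand. These included *Frs3*, *Traf6*, *Egr1*, *Spry1*, *Tnfrsf19* and *Pcsk5*. The 8 markers, none of them at 0 in all cultures, summed to 2143, 2157 and 897 CPM in vehicle replicates 1, 2 and 3 and to 1155, 1386 and 305 CPM in the HC-HA/PTX3 replicates, with *Col3a1* the most abundant on average. Most of the sum came from *Col1a1*, *Col1a2* and *Col3a1*, which were called lower (log2 fold changes -1.62, -1.11 and -0.96), whereas the other 5 markers were not called. Of 9 macrophage markers, led on average by *Lyz2*, *C1qb* and *C1qa* were called lower, and of 10 endothelial and mural markers, led on average by *Rgs5*, *Acta2* was, where 5.38% of all tested genes were called lower. Fitted values were above 0 for 2 of the 9, *Mrc1* (0.34) among them, and for 4 of the 10, *Kcnj8* (0.59) and *Rgs5* (0.15) among them. In pairs 1, 2 and 3 the macrophage sum changed by log2 values of -0.08, 0.02 and -0.46. The endothelial and mural sum changed by -0.01, 0.01 and -0.35. The part of these markers' cells in the falls of the pathway genes called lower was not tested. Without the block edgeR called 0 of the 107 pathway genes.

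**Figure D4:**
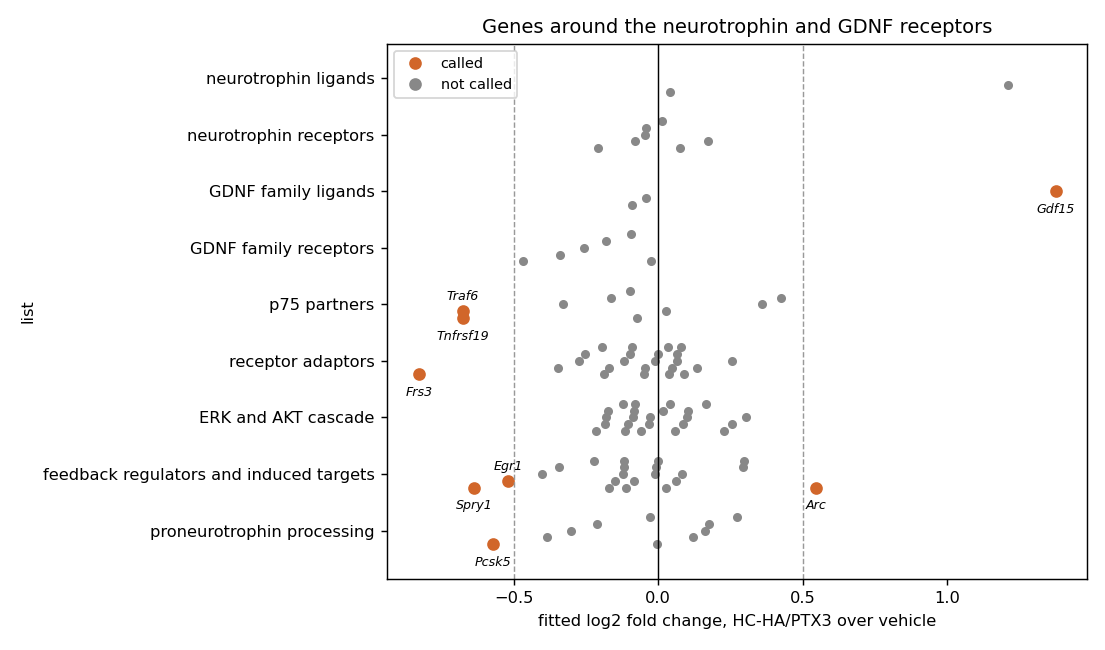
Fitted log2 fold change of tested genes in 9 lists around the receptors, a few of them not shown, with called genes in orange and named, the others in grey, and dashed lines at the fold threshold of 0.5. The called genes shown lay between -0.83 (*Frs3*) and 1.38 (*Gdf15*), and none belonged to the neurotrophin receptors, the GDNF family receptors or the ERK and AKT cascade.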

How the data were processed

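Ribosomal RNA-depleted libraries of 6 cultures were aligned by the authors to mm10 and counted per gene with featureCounts. The methods name HISAT2 as aligner and the headers of the count tables name STAR, and the strand setting is not given in the sources used here. In the deposited tables each gene has its raw counts as a whole number, with a table for each library. Counts were analysed in R 4.3.3 with edgeR 4.0.16 (filterByExpr, TMM, glmQLFit, glmQLFTest with the replicate number as a block), after the batch and condition terms of the methods. The methods do not list the batches, and taking the replicate number as the batch is an assumption on which every call rests. The log2 CPM for the correlations used a prior count of 2. The labels carry replicate numbers 1 to 3 in both groups. As a check of the pairing, each culture's log2 CPM was centred on the mean of its group, and the 3 same-numbered pairs then had correlations of 0.631, 0.536 and 0.774 over genes, above the limit of 0.1 set for pairs. Pairs with different numbers had -0.613 to 0.148, and the pairs of vehicle 1 with treated 2 (0.104) and of vehicle 2 with treated 1 (0.148) were above that limit as well. Within groups no library was a copy of another, with a chi-square over its degrees of freedom of 34.1 to 120. Alternatives used limma 3.58.1, DESeq2 1.42.0 and ComBat-seq of sva 3.50.0. The edgeR, DESeq2 and limma-voom tests were tested on simulated data. The test of the replicate number and the longest-transcript length were chosen after seeing the data. Gene positions and exon lengths are those of GENCODE M21, matched by symbol. Named were the 8 genes, listed ligands and receptors, called genes of the other lists (at most 5 a list), the most abundant gene and the called genes (at most 3) of marker lists, and the 3 genes closest in pattern to each of the 8, apart from a few genes that are counted in their lists and not described. The genes and lists were chosen with earlier results of these data known. Library totals ran from 37434266 to 54117547 counts. Counting intervals cover counting error only, and the parts of depth and of the spread between cultures in the precision were not separated.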

Additional observations from a re-analysis of the deposited data

How the results depend on the processing

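Without the replicate block, edgeR called 0 of 18277 genes and 0 of the 107 pathway genes, against 1591 and 9 with it, so every call given here rests on the comparison within same-numbered pairs. The unadjusted p-value was below 0.05 for 2089 genes without the block, and 0 of the 8 ligand and receptor genes were called in either fit. With a pair of cultures left out, the count of called genes ran from 878 (without the cultures numbered 1) to 1571, that of called pathway genes from 4 (again without those numbered 1) to 8, and that of the 8 genes from 0 to 1, the exception being *Ntf3* without the cultures numbered 3. Over the same settings the log2 fold change ran from -0.0282 to 0.0562 for *Ngfr*, from -0.107 to 0.0254 for *Ntrk2* and from -0.0678 to 0.0355 for *Gfra3*, changing sign around 0. Upper-quartile scaling gave *Gfra3* 0.0063, and the table of all genes with at least 1 count gave *Ngfr* -0.0041. The other 5 of the 8 genes kept their direction under each of the 10 or 11 alternatives. ComBat-seq with limma gave 2156 calls, 1042 higher and 1114 lower, in place of 607 higher and 984 lower. *Gdf15*, *Frs3* and *Traf6* were called under 10 of 11 alternatives, all but the fit without the block, and *Tnfrsf19* under 4. Without the block *Gdf15*, *Frs3* and *Traf6* had log2 fold changes of 1.39, -0.84 and -0.67. *Ntf3* could not be fitted under the filter of 10 counts in every culture, and DESeq2 gave it no adjusted p-value.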

Other observations

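Markers of the neuron classes that these receptors define were read list by list, and differences between the lists were not tested. Of 6 peptidergic markers, *Tac1* (substance P precursor) and *Calcb* (β-CGRP) were called higher, 2.01-fold (adjusted p = 4.92e-05) and 1.60-fold (adjusted p = 0.000389) in edgeR's fit with the block, and the treated cultures lay above the vehicle cultures for both. Of all tested genes 8.70% were called in either direction and 3.32% higher, and 18.0% had groups that did not overlap, in either direction. *Calca*, the most abundant marker of that list on average, though not in each culture, had a log2 fold change of 0.23 (adjusted p = 0.0711).

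Of 8 tested non-peptidergic markers, *Nppb* (log2 fold change 0.89, adjusted p = 0.0119) and *Mrgprd* (0.62, adjusted p = 0.00267) were called higher and *Lpar5* (-0.76, adjusted p = 0.0244) and *Mrgpra3* (-0.56, adjusted p = 0.0484) lower, *Mrgpra3* being named after its values were seen and all at vehicle means between 1.65 and 13.8 CPM, where 3.32% of all tested genes were called higher and 5.38% lower. *P2rx3*, the most abundant of them, had a log2 fold change of 0.05 (adjusted p = 0.682). None of 8 tested touch receptor markers, led by *Piezo2*, and none of 6 proprioceptor markers, led by *Spp1*, was called, against 8.70% of all tested genes, with 2 of each at an unadjusted p-value under 0.05 against 33.2% of all tested genes, while all 14 of them passed the test of the replicate number against 33.8%.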
